A study of Homo sapiens with 4 samples.

Results

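The star strands on a miRNA array were described in 4 lines of HepG2, an established human liver cancer line. A star strand was any miRNA whose name on the array ended in an asterisk, the older sign for the less abundant product of a hairpin, and membership rested on the name alone. There were 187 star strands among the 1212 human miRNAs printed on each array, and 1025 other miRNAs. All 187 were present on both scanned arrays and in the authors' table of normalized values, and 157 had a guide strand on the array under the same name without the asterisk. HepG2-Twist1/Bcl-2 cells had received plasmids for both Twist1 and Bcl-2, HepG2-Bcl-2 cells pcDNA-Bcl-2, HepG2-Twist1 cells pcDNA-Twist1, and HepG2-vector cells carried neither transgene and are labelled with no construct. The transgene lines were stably expressing, all 4 share the HepG2 background, and 1 RNA sample stands for each line, so the sources name no separate cultures or clones. On array 1 HepG2-Twist1 RNA (Cy5) was hybridized together with HepG2-vector RNA (Cy3), and on array 2 HepG2-Twist1/Bcl-2 RNA (Cy3) together with HepG2-Bcl-2 RNA (Cy5). With 1 sample per line there is no test between lines: each SD below is that of 3 repeat spots on 1 array, which is technical error. Across arrays Bcl-2, array and hybridization cannot be told apart. Within an array the 2 lines also differ in dye, and neither pair was hybridized again with the dyes swapped. On 1 array alone, Twist1 and a dye effect of a single probe therefore cannot be told apart.

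A miRNA hairpin is cut by Drosha in the nucleus and by Dicer in the cytoplasm into a short duplex. An Argonaute protein usually keeps 1 strand, the guide, which then pairs through its seed with target mRNAs, and the passenger or star strand is usually released and degraded. Some star strands are also loaded and repress targets of their own, and current names replace the asterisk by the arm of the hairpin, 5p or 3p. Twist1 is a transcription factor that drives the epithelial-mesenchymal transition, and Bcl-2 is a mitochondrial inhibitor of apoptosis.

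The sequences of the star strands on which the comparisons turn are given 5′ to 3′, with the guide strand for the hairpins of miR-149, miR-30a, miR-30e, let-7d and miR-424. Capitals mark the seed, bases 2 to 8.
miR-149*: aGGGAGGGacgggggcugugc
miR-149: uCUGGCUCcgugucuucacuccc
miR-30a*: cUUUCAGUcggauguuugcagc
miR-30a: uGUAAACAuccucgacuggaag
miR-30e*: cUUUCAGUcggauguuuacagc
miR-30e: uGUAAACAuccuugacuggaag
let-7d*: cUAUACGAccugcugccuuucu
let-7d: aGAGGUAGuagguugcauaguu
let-7b*: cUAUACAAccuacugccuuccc
miR-24-2*: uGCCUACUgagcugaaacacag
miR-24-1*: uGCCUACUgagcugauaucagu
miR-23a*: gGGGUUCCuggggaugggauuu
miR-187*: gGCUACAAcacaggacccgggc
miR-424*: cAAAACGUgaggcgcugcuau
miR-424: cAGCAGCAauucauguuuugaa
miR-191*: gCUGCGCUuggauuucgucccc
miR-9*: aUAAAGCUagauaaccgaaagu
miR-29b-2*: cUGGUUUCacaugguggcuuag
miR-629*: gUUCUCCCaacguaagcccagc

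The printed sequences were those given on the array, and each matched a RefSeq mature miRNA base for base (GRCh38.p14 for all positions). miR-149* (now miR-149-3p) lies at chr2:240456056-240456076 on the plus strand, within the annotated span of GPC1, which encodes glypican 1. miR-30e* (chr1:40754413-40754434, plus strand) lies within NFYC, a subunit of the NF-Y transcription factor, and miR-30a* (chr6:71403554-71403575, minus strand) lies outside any other annotated gene. miR-23a* (chr19:13836630-13836651, minus strand) and miR-24-2* (chr19:13836326-13836347, minus strand) come from the same host transcript, MIR23AHG. let-7d* (chr9:94178895-94178916, plus strand) lies within the span of the long noncoding RNA MIRLET7A1HG, and miR-424* (chrX:134546644-134546664, minus strand) and miR-187* (chr18:35904871-35904892, minus strand) lie outside any other annotated gene. The sequence of miR-9* is made by 3 genes, MIR9-1 on chromosome 1, MIR9-2 on chromosome 5 and MIR9-3 on chromosome 15, so the probe reads their sum. Only gene spans were used, so exon and intron were not distinguished.

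Of the 187 star strands, 171 matched a RefSeq mature sequence exactly; 101 of these came from the 3p arm, 69 from the 5p arm and 1 carried no arm in its name. The 187 star strands had 166 different seeds, and 39 of them shared 18 seeds with another star strand. miR-30a*, miR-30d* and miR-30e* shared UUUCAGU, miR-24-1* and miR-24-2* shared GCCUACU, miR-23a* and miR-23b* shared GGGUUCC, and let-7a*, let-7b* and let-7f-1* shared UAUACAA.

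Raw signals of most star spots lay near those of spots with no probe. The median star spot read 142 in HepG2-Twist1/Bcl-2, 48.9 in HepG2-Bcl-2, 40.7 in HepG2-Twist1 and 116 in HepG2-vector, and the median of the 20 empty spots read 159, 51.7, 38.01 and 105 in the same lines. Levels below are normalized intensities after background correction and loess within the array, and 32 is the minimum that the study's methods set for their own normalized values. Whether background had already been subtracted from the deposited spot values is not given in the sources used here, so a level of 32 need not mean the same in both. As a check of the cells, the liver-enriched miR-192 stood at 152 in HepG2-Twist1/Bcl-2, 443 in HepG2-Bcl-2, 362 in HepG2-Twist1 and 352 in HepG2-vector, and miR-194 at 146, 151, 108 and 110, whereas miR-122, the most abundant miRNA of hepatocytes, and miR-885-5p were below 32 in all 4 lines.

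Star strands reached the minimum of 32 less often than the other miRNAs in each line. In HepG2-Twist1/Bcl-2 60 star strands (32.1%) were at 32 or more, beside 422 other miRNAs (41.2%), and in HepG2-Bcl-2 62 (33.2%), beside 470 (45.9%). In HepG2-Twist1 38 star strands (20.3%) were at 32 or more, beside 248 other miRNAs (24.2%), and in HepG2-vector 34 (18.2%), beside 248 (24.2%). Both samples of array 2 thus had more star strands over the minimum than both samples of array 1. In the authors' normalized values the order of the arrays turned round, with 26 star strands (13.9%) in HepG2-Twist1/Bcl-2, 27 (14.4%) in HepG2-Bcl-2, 34 (18.2%) in HepG2-Twist1 and 30 (16.04%) in HepG2-vector, while the star share stayed under that of the other miRNAs in all 4 lines (18.8%, 22.1%, 21.4% and 22.3% in the same order).

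**Figure D1:**
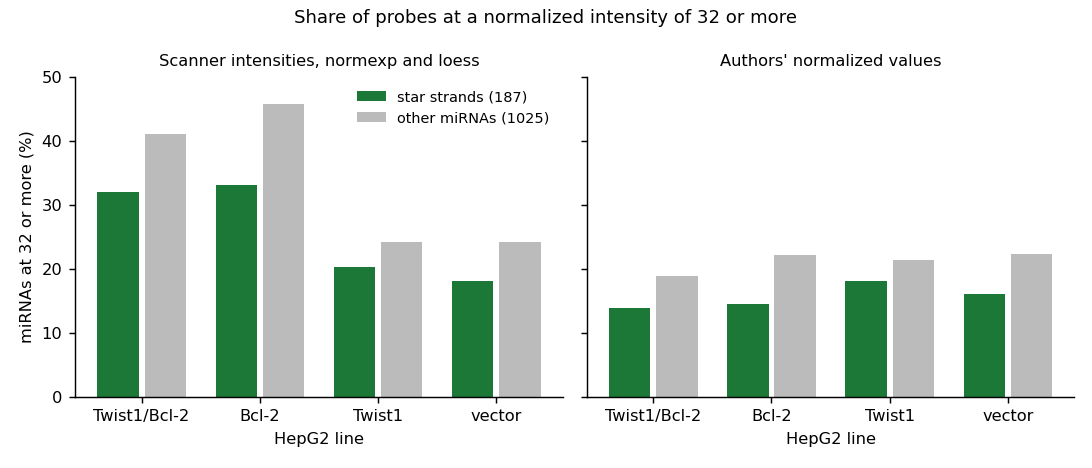
Share (%) of the 187 star strands (green) and of the 1025 other miRNAs (grey) at a normalized intensity of 32 or more in each HepG2 line, from the scanner intensities (left panel) and from the authors' normalized values (right panel). Every green bar is lower than the grey bar beside it, with star shares of 18.2% to 33.2% in the left panel and 13.9% to 18.2% in the right panel.

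Few star strands were bright. At 100 or more there were 6 star strands (3.21%) in HepG2-Twist1/Bcl-2, 8 (4.28%) in HepG2-Bcl-2, 7 (3.74%) in HepG2-Twist1 and 6 (3.21%) in HepG2-vector, beside 149 (14.5%), 157 (15.3%), 137 (13.4%) and 138 (13.5%) of the other miRNAs. Set against the empty spots, the order of star strands and other miRNAs held on array 2 and not on array 1. The share above the 95th percentile of the empty spots of the channel was 18.7% of star strands beside 23.6% of the others in HepG2-Twist1/Bcl-2 and 21.4% beside 29.2% in HepG2-Bcl-2, but 47.6% beside 46.2% in HepG2-Twist1 and 52.9% beside 51.4% in HepG2-vector. Of the 60 star strands at 32 or more in HepG2-Twist1/Bcl-2, 35 were above that percentile, beside 242 of 422 other miRNAs, and of the 62 in HepG2-Bcl-2, 40 were, beside 299 of 470. On array 1 all star strands and all other miRNAs at 32 or more were above it.

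Over the 4 lines 105 star strands were below 32 in every line, 26 reached it in 1 line, 25 in 2 lines, 6 in 3 lines and 25 in all 4 lines. A level of 32 or more in any line was thus seen for 82 star strands (43.9%), beside 542 other miRNAs (52.9%), and in all 4 lines for 13.4% of the star strands and 20.1% of the others. In the authors' values 44 star strands reached 32 in any line and 16 in all 4, and all 16 were among the 25. Of these 25, 15 came from the 3p arm, 8 from the 5p arm, and miR-150* and miR-505* had no exact RefSeq match. The median GC content was 50% for the 25 star strands at 32 or more in all 4 lines, 54.5% for those in 1 to 3 lines and 45.5% for the 105 in none. The other miRNAs had like medians, 52.2% in all 4 lines and 45% in none.

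miR-149* was the brightest star strand in each of the 4 lines. Its level was 545 ± 145 in HepG2-Twist1/Bcl-2, 1017 ± 127 in HepG2-Bcl-2, 1285 ± 91.9 in HepG2-Twist1 and 2159 ± 159 in HepG2-vector (SD of 3 spots). Among all 1212 miRNAs it ranked 87, 70, 60 and 53 in these lines, and at 76.2% GC it was among the most GC-rich star strands. miR-30a*, the 3p strand of a hairpin of the miR-30 family, followed with 361 ± 89.6 in HepG2-Twist1/Bcl-2, 645 ± 104 in HepG2-Bcl-2, 355 ± 86.2 in HepG2-Twist1 and 312 ± 54.1 in HepG2-vector.

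4 more star strands reached 100 in both lines of an array. let-7d* stood at 154 ± 41.8 in HepG2-Twist1/Bcl-2, 148 ± 34.7 in HepG2-Bcl-2, 283 ± 363 in HepG2-Twist1 and 153 ± 18.7 in HepG2-vector. Its HepG2-Twist1 value rested on 1 spot that read 789, beside 171 and 149 for the others, so the lines overlapped without that spot. miR-30e*, whose seed is that of miR-30a*, stood at 120 ± 34.1 in HepG2-Twist1/Bcl-2, 199 ± 26.3 in HepG2-Bcl-2, 102 ± 32.4 in HepG2-Twist1 and 122 ± 27.5 in HepG2-vector. miR-24-2* stood at 85.8 ± 12.6 in HepG2-Twist1/Bcl-2 against 159 ± 13.0 in HepG2-Bcl-2, and 159 ± 11.2 in HepG2-Twist1 against 161 ± 13.3 in HepG2-vector. miR-629* stood at 91.2 ± 18.0 in HepG2-Twist1/Bcl-2, 100.4 ± 17.4 in HepG2-Bcl-2, 103 ± 15.4 in HepG2-Twist1 and 122 ± 16.8 in HepG2-vector.

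**Figure D2:**
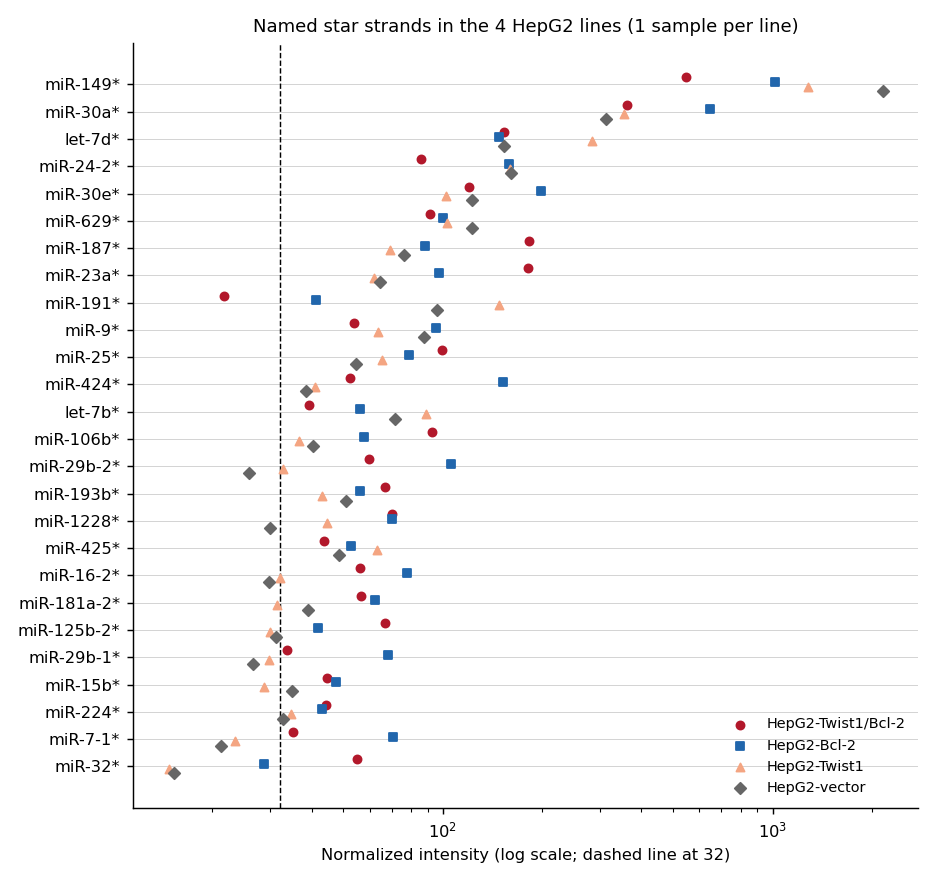
Normalized intensity (log scale, dashed line at 32) of the 26 named star strands, 1 symbol per HepG2 line and 1 sample per line. miR-149* lies to the right of the others in each line and is lower in each Twist1 line than in its partner (545 against 1017, and 1285 against 2159), whereas most of the others lie between 20 and 200.

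Levels beside the guide strand were given for the 157 pairs of the same name. Because probes differ in how they bind and label, the brightness of a star probe over that of a guide probe is no ratio of amounts. In HepG2-Twist1/Bcl-2 86 guides and 45 star strands of these pairs were at 32 or more, 36 pairs had both, 50 the guide alone, 9 the star alone and 62 neither. In HepG2-Bcl-2 105 guides and 48 star strands were, with 43 pairs both and 5 star alone, in HepG2-Twist1 81 and 32, with 24 both and 8 star alone, and in HepG2-vector 82 and 29, with 22 both and 7 star alone. A star strand was over the minimum more often when its guide was: 41.9% against 12.7% of star strands in HepG2-Twist1/Bcl-2, 41.0% against 9.62% in HepG2-Bcl-2, 29.6% against 10.5% in HepG2-Twist1 and 26.8% against 9.33% in HepG2-vector. Even under guides at 1000 or more, 16 of 35 star strands reached 32 in HepG2-Twist1/Bcl-2, 16 of 35 in HepG2-Bcl-2, 11 of 32 in HepG2-Twist1 and 11 of 34 in HepG2-vector.

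Where both were at 32 or more, the median star probe read 7.49% of its guide probe in HepG2-Twist1/Bcl-2, 9.84% in HepG2-Bcl-2, 9.24% in HepG2-Twist1 and 5.32% in HepG2-vector. The span was wide. let-7d* stood at 154 in HepG2-Twist1/Bcl-2 beside 16746 for let-7d, miR-23a* at 182 beside 17594 for miR-23a, and miR-25* at 99.3 beside 5897 for miR-25. miR-30e* and its guide were closer, with 120 beside 288 in HepG2-Twist1/Bcl-2, 199 beside 783 in HepG2-Bcl-2, 102 beside 370 in HepG2-Twist1 and 122 beside 562 in HepG2-vector.

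The star probe was the brighter of the pair, with at least the star at 32 or more, in 16 pairs in HepG2-Twist1/Bcl-2, 14 in HepG2-Bcl-2, 11 in HepG2-Twist1 and 10 in HepG2-vector. These counts were 6, 6, 12 and 9 in the authors' values. 6 star strands did so in all 4 lines, namely miR-149*, miR-187*, miR-150*, miR-505*, miR-500a* and miR-518f*, of which miR-150*, miR-505*, miR-500a* and miR-518f* were picked out after their values were seen. In the authors' values 4 of them did so in all 4 lines, miR-149*, miR-187*, miR-505* and miR-500a*. miR-149* had the widest gap: its guide miR-149 read 52.7 in HepG2-Twist1/Bcl-2, 54.4 in HepG2-Bcl-2, 45.4 in HepG2-Twist1 and 42.1 in HepG2-vector, close to the minimum in each line. The guide miR-187 stayed below 32 in all 4 lines, at 30.0, 31.1, 19.0 and 22.4 in the same order, while miR-187* read 182 ± 12.5 in HepG2-Twist1/Bcl-2, 88.1 ± 6.81 in HepG2-Bcl-2, 69.0 ± 3.78 in HepG2-Twist1 and 76.2 ± 5.23 in HepG2-vector. miR-9*, from hairpins best known in neurons, was brighter than miR-9 in 3 lines, with 53.8 beside 69.7 in the exception, HepG2-Twist1/Bcl-2. The gap in HepG2-Bcl-2 was small, 95.6 beside 81.7 ± 28.2 for the guide. In the authors' values miR-9* was brighter only in HepG2-Twist1 and HepG2-vector, with 62.3 beside 62.6 in HepG2-Bcl-2.

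**Figure D3:**
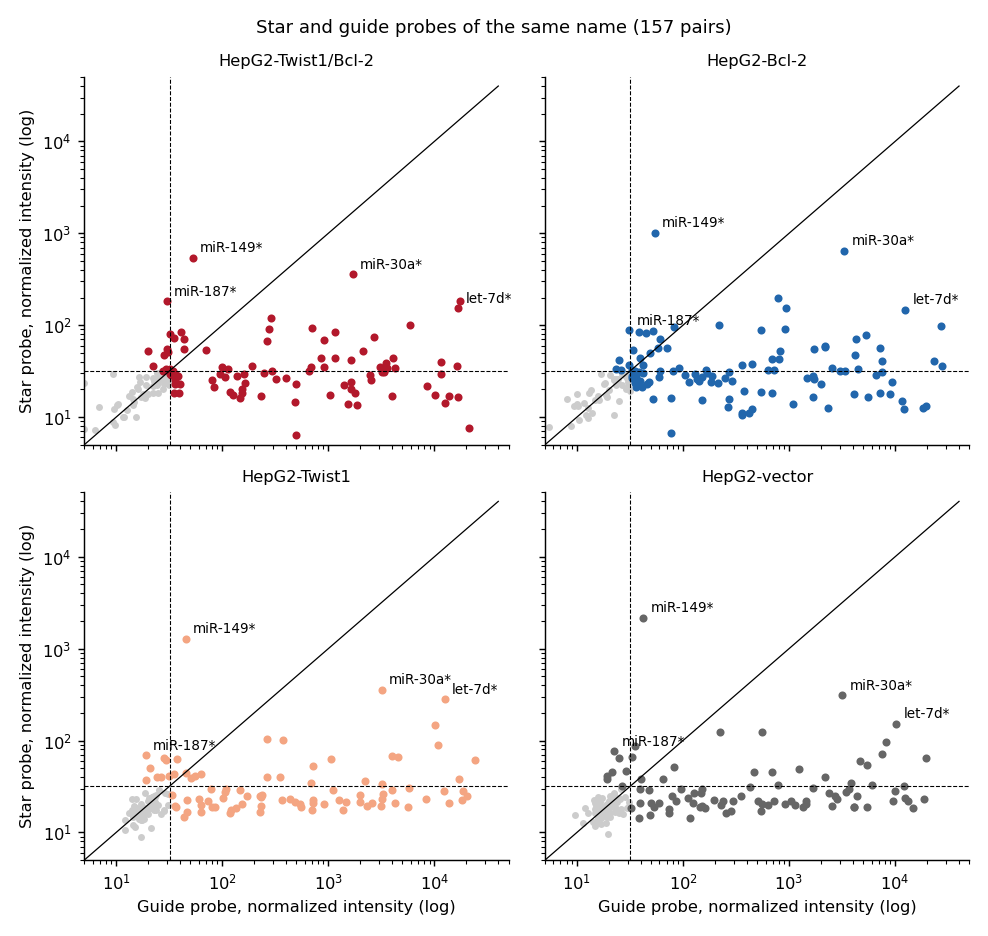
Normalized intensity (log axes) of the star probe against the guide probe of the same name for 157 pairs, 1 panel per HepG2 line, with dashed lines at 32, the diagonal for equal brightness, grey points where both are below 32 and values under 5 drawn at 5. Most pairs with a bright guide lie far under the diagonal, and miR-149* lies above it in all 4 panels (545, 1017, 1285 and 2159 beside 52.7, 54.4, 45.4 and 42.1 for miR-149).

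HepG2-Twist1 was compared with HepG2-vector on array 1, to ask which star strands differed between the Twist1 line and its partner, which also differ in dye. A star strand was measured if it was at 32 or more in at least 1 of both samples. It was called if its log2 ratio was at least 1 in size and its 3 spots lay on the same side of 0. The ratio was taken with an offset of 50 added to each intensity. A log2 ratio of 1 is therefore more than 2-fold by level, and the dimmer the probe, the larger the fold by level that a call needs. Of 41 measured star strands 0 were called higher and 0 lower, beside 0.0% and 1.64% of all 304 measured miRNAs. Few star strands were bright, with 7 at 100 or more in HepG2-Twist1 and 6 in HepG2-vector, beside 144 of all 1212 miRNAs in each line. The 0 calls therefore say little about the dim star strands. The median log2 ratio was 0.03 for the star strands and -0.02 for all miRNAs, with 22 star strands above 0 and 19 below, and their ratios ran between -0.73 and 0.72. The star ratios had an SD over miRNAs of 0.21, against 0.29 for the other miRNAs, and a median spot SD of 0.09. The offset narrows ratios of dim probes, so these SDs do not show that star strands varied less. Past a log2 ratio of 0.5 in either direction, with the spots on one side of 0, 1 star strand was higher and 1 lower, beside 1.97% and 6.58% of all miRNAs.

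The star strand with the lowest ratio was miR-149*, at -0.73 ± 0.03 on the log2 scale (1285 in HepG2-Twist1 against 2159 in HepG2-vector), with spots at -0.72, -0.76 and -0.70. miR-9* was next, at -0.28 ± 0.03 (63.8 ± 2.32 in HepG2-Twist1 against 87.7 ± 3.39 in HepG2-vector), and miR-30e* followed at -0.18 ± 0.07. The samples did not overlap over spots for miR-149* and miR-9*, and did for miR-30e*. Among the higher ones let-7d* had the largest ratio, 0.72 ± 1.07, but only 0.06 and 0.13 on the other spots beside 1.95 on the one named above. miR-191*, the 3p strand of the abundant miR-191, was at 0.43 ± 0.07, with 148 ± 34.5 in HepG2-Twist1 against 96.4 ± 18.6 in HepG2-vector, and its spot ratios were 0.52, 0.39 and 0.39. miR-1228* was at 0.24 ± 0.09 (44.6 in HepG2-Twist1, against 30.0 in HepG2-vector, which is below 32), miR-425* at 0.20 ± 0.10 and let-7b* at 0.19 ± 0.10.

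HepG2-Twist1/Bcl-2 was compared with HepG2-Bcl-2 on array 2 for the same question in cells that carry Bcl-2. Of 72 measured star strands 0 were called higher and 0 lower, beside 3.55% and 4.9% of all 592 measured miRNAs. The median log2 ratio was -0.03 for the star strands and -0.04 for all miRNAs, with 30 star strands above 0 and 42 below, and the range was -0.99 to 0.75. Their ratios had an SD over miRNAs of 0.30, against 0.70 for the other miRNAs, and a median spot SD of 0.12. Past a log2 ratio of 0.5 in either direction, with the spots on one side of 0, 2 star strands were higher and 7 lower, beside 8.61% and 12.3% of all miRNAs. Those 7 were miR-424*, miR-149*, miR-30a*, miR-24-2*, miR-30e*, miR-7-1* and miR-29b-2*, and the 2 higher ones were miR-187* and miR-23a*.

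miR-424*, from a hairpin of the miR-15/16 seed family on the X chromosome, had the lowest ratio, at -0.99 ± 0.36, just short of the size for a call. It read 52.3 ± 24.9 in HepG2-Twist1/Bcl-2 against 153 ± 10.7 in HepG2-Bcl-2, and 41.1 ± 5.68 in HepG2-Twist1 against 38.6 ± 9.35 in HepG2-vector, so HepG2-Bcl-2 had the highest level. In the authors' values, without the offset and with the sample below 32 set to 32, the ratio was -1.79, past the size for a call. With the offset it also passed with the empty spot subtracted (-1.16), the median of the spots (-1.06) and repeat spot 1 left out (-1.18). Its guide miR-424 was also brightest in HepG2-Bcl-2, with another order of the other lines. The guide read 19.9 in HepG2-Twist1/Bcl-2 against 939 in HepG2-Bcl-2, and 55.2 in HepG2-Twist1 against 64.2 in HepG2-vector. On array 2 it was at least 29.3-fold lower by level, without the offset (a bound against 32, since HepG2-Twist1/Bcl-2 was below it).

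miR-149* was at -0.84 ± 0.29 on array 2 (545 in HepG2-Twist1/Bcl-2 against 1017 in HepG2-Bcl-2), with spots at -0.51, -1.0 and -1.02, while its dim guide was at -0.02 ± 0.17. miR-30a* was at -0.76 ± 0.18 and its guide miR-30a at -0.95 ± 0.18, and miR-30e* was at -0.55 ± 0.14 with miR-30e at -1.30 ± 0.18. Star and guide thus had ratios of the same sign in both miR-30 pairs. miR-24-2* was at -0.62 ± 0.05 and miR-24, which 2 hairpins make, at -0.59 ± 0.08.

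On the higher side stood miR-187*, at 0.75 ± 0.07 (182 in HepG2-Twist1/Bcl-2 against 88.1 in HepG2-Bcl-2), and miR-23a*, at 0.65 ± 0.10 (182 ± 15.5 against 97.3 ± 18.2). The spots of the samples did not overlap for either. In the authors' values the ratios, taken without the offset, were 1.39 for miR-187* and 1.22 for miR-23a*, both past the size for a call. A given change in level reaches that size more easily without the offset, so these ratios and the scanner ratios are not on one scale. miR-23a* and its guide went opposite ways, since miR-23a was at -0.60 ± 0.10, and so did miR-106b*, at 0.40 ± 0.09 beside -1.56 ± 0.18 for miR-106b. miR-32*, at 0.41 ± 0.02, was over the minimum in HepG2-Twist1/Bcl-2 alone (54.8 against 28.7 in HepG2-Bcl-2), which is at least 1.71-fold by level against 32. In the authors' values it was below 32 in every line, at 21.8 in HepG2-Twist1/Bcl-2, 5.32 in HepG2-Bcl-2, 3.38 in HepG2-Twist1 and 4.94 in HepG2-vector.

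2 star strands of miR-29b show how single spots entered. miR-29b-2* had a ratio of -0.50 ± 0.77, with a spot at 282 in HepG2-Twist1/Bcl-2 against 826 in HepG2-Bcl-2 where the other spots read 16.6 and 9.90 in HepG2-Twist1/Bcl-2 against 19.1 and 12.4 in HepG2-Bcl-2. miR-29b-1*, read by a probe of its own, was at -0.50 ± 0.08 (33.7 ± 14.9 against 68.1 ± 27.7), with all spots below 0. miR-7-1* stood likewise at -0.50 ± 0.38 (35.2 ± 25.0 in HepG2-Twist1/Bcl-2 against 70.7 ± 2.51 in HepG2-Bcl-2).

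Ratios of star and guide were also set side by side where both were measured. On array 1 the 27 such pairs had 13 ratios of the same sign (8 both higher, 5 both lower), with Pearson's r of 0.22 and Spearman's rho of 0.21 across pairs. On array 2 the 48 such pairs had 26 of the same sign (9 both higher, 17 both lower), with r of 0.30 and rho of 0.08. Pairs on an array share its samples and normalization and are not independent.

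Both arrays then entered a single fit, as lines with Twist1 over lines without, in limma over the 272 miRNAs measured on both arrays. The Twist1 line carried Cy5 on array 1 and Cy3 on array 2, so a dye effect shared by both arrays cancels in the mean ratio. A dye effect that differs between the arrays does not cancel. Of these 31 were star strands, and 0 passed the adjusted threshold of 0.05, beside 0.0% of all 272, which is also 0 miRNAs. At an unadjusted p under 0.05 there was 1 star strand, beside 3 of all 272 (1.1%). It was miR-149*, with a mean log2 ratio of -0.78 (SE 0.23, limma adjusted p = 0.999, lower in both Twist1 lines). By the same test without moderated variance 1 star strand was under 0.05, 0 under 0.01 and 0 after Benjamini-Hochberg adjustment. Of all 272 miRNAs 4, 2 and 0 were. miR-9* averaged -0.38 (SE 0.24), miR-30e* -0.36 (SE 0.25), miR-424* -0.47 (SE 0.36) and let-7d* 0.38 (SE 0.29), each with an adjusted p of 0.999 in limma. The test had 2 ratios per miRNA, so it could find only shifts that were large and alike on both arrays.

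**Figure D4:**
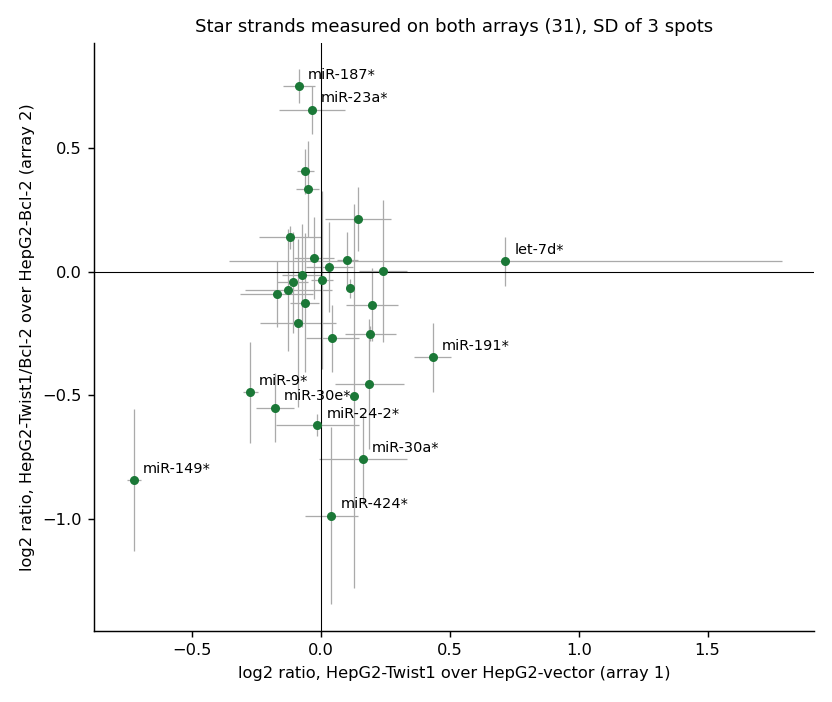
Log2 ratio of HepG2-Twist1 over HepG2-vector (array 1, horizontal) against HepG2-Twist1/Bcl-2 over HepG2-Bcl-2 (array 2, vertical) for the 31 star strands measured on both arrays, with bars for the SD of 3 repeat spots. miR-149* lies alone at the lower left (-0.73 and -0.84), and miR-424*, miR-30a*, miR-187* and miR-23a* lie more than 0.5 from 0 on array 2 and within 0.2 of it on array 1.

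Spots of one sign were common, in 179 of all 304 measured miRNAs on array 1 and 332 of all 592 on array 2. Among star strands they were seen in 27 of 41 and 38 of 72. Of the 25 star strands at 32 or more in all 4 lines, 11 had all 3 spots of one sign on each array. The same count over both arrays was not made for all miRNAs, so the signs below cannot be set against a general rate. 3 were lower in the Twist1 line on both arrays, miR-149*, miR-9* (-0.28 and -0.49) and miR-30e* (-0.18 and -0.55). 1 was higher in it on both, miR-25* (0.14 ± 0.13 on array 1 and 0.21 ± 0.13 on array 2). The other 7 had opposite signs on the arrays, among them miR-187*, miR-106b*, let-7b* and miR-193b*. Without normalization the sign of miR-149*, miR-9* and miR-30e* on array 2 turned, to 0.14, 0.43 and 0.47, in a setting in which the median of all miRNAs on array 2 was 0.59.

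The star strands were also grouped by family, and in none of the 10 lists was a member called on either array. Of the 10 let-7 star strands, from hairpins whose guides repress growth genes, 6 were at 32 or more in any line and 2 in all (let-7b* and let-7d*), with 2 in each line of array 2 and 5 in each line of array 1. Their median log2 ratio was 0.06 over 6 members on array 1 and -0.10 over 2 on array 2. let-7b* read 39.3 ± 12.6 in HepG2-Twist1/Bcl-2 against 56.3 ± 12.6 in HepG2-Bcl-2, and 88.9 ± 13.5 in HepG2-Twist1 against 71.7 ± 6.83 in HepG2-vector.

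The 15 star strands of the miR-17/92 clusters and their paralogs come from growth-promoting clusters. 6 passed the minimum in each line of array 2 and 2 in each line of array 1, where miR-25* and miR-106b* did, while of all 1212 miRNAs 39.8% passed it in HepG2-Twist1/Bcl-2, 43.9% in HepG2-Bcl-2, 23.6% in HepG2-Twist1 and 23.3% in HepG2-vector. miR-106b* read 92.6 ± 23.8 in HepG2-Twist1/Bcl-2 against 57.8 ± 13.2 in HepG2-Bcl-2, and 36.7 ± 7.10 in HepG2-Twist1 against 40.5 ± 7.42 in HepG2-vector. The median ratios of the list were 0.04 on array 1 and 0.05 on array 2.

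Of the 6 miR-30 star strands 3 were over the minimum in all 4 lines, miR-30a*, miR-30e* and miR-30c-2*, and miR-30d*, which has the seed of the first pair, was below it in all. Their medians were -0.03 on array 1 and -0.55 on array 2, beside -0.02 and -0.04 for all miRNAs. All 6 star strands of the miR-23/27/24 clusters were over the minimum in any line and 3 in all 4 (miR-23a*, miR-24-2* and miR-27b*), with medians of -0.01 and 0.02, and miR-23a* and miR-24-2* of the same host transcript lay on opposite sides of 0 on array 2. miR-24-1*, whose seed is that of miR-24-2*, was just over the minimum on array 2, at 32.3 in both samples, and below it on array 1.

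Of the 4 miR-15/16 star strands 3 were over the minimum in any line and 0 in all 4, with medians of -0.03 and -0.04. miR-16-2* read 56.0 ± 10.9 in HepG2-Twist1/Bcl-2 against 77.7 ± 24.3 in HepG2-Bcl-2, and 32.03 ± 4.43 in HepG2-Twist1 against 29.7 ± 2.93 in HepG2-vector. Of 7 star strands of miR-26 and miR-29 only the 2 of miR-29b were over the minimum, and of 8 of the miR-181, miR-99, miR-100 and miR-125 families, 5 were on array 2 and 1 on array 1 (miR-181a-2*), with a median of 0.07 over 5 members on array 2. miR-125b-2* read 66.8 ± 15.6 in HepG2-Twist1/Bcl-2 against 42.0 ± 7.89 in HepG2-Bcl-2, a log2 ratio of 0.35 ± 0.07, and was below 32 in HepG2-Twist1 and HepG2-vector.

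Among 9 star strands of hairpins tied to growth and liver cancer 5 were over the minimum in any line and 2 in all 4, miR-224* and miR-193b*, with medians of -0.04 and -0.02. miR-224* hardly varied, at 44.2 ± 14.0 in HepG2-Twist1/Bcl-2, 42.9 ± 2.31 in HepG2-Bcl-2, 34.6 ± 2.21 in HepG2-Twist1 and 32.7 ± 3.38 in HepG2-vector. Among 9 star strands of hairpins tied to the epithelial-mesenchymal transition 3 were over the minimum in any line and miR-149* and miR-424* in all 4, so the medians, -0.34 over 2 members on array 1 and -0.84 over 3 on array 2, rest on these. Of 12 star strands with functions of their own in other cells 10 were on the array and 3 over the minimum, and only miR-9* was in all 4 lines.

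Between arrays the lines were also set on one scale. After a between-array quantile step miR-149* read 475 in HepG2-Twist1/Bcl-2, 891 in HepG2-Bcl-2, 1399 in HepG2-Twist1 and 2347 in HepG2-vector, so both lines with Bcl-2 were under both without. miR-191* read 17.6 in HepG2-Twist1/Bcl-2 against 35.9 in HepG2-Bcl-2, and 172 in HepG2-Twist1 against 114 in HepG2-vector, while its guide was bright in all 4 lines (8428, 7537, 10165 and 8262 within arrays). These gaps lie between arrays as well as between Bcl-2 states, which cannot be told apart.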

How the data were processed

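The arrays were made and read by a service provider: total RNA was labelled in 2 colours, hybridized to a microfluidic chip with probes from miRBase, scanned with a laser scanner and digitized with Array-Pro. The deposited scanner tables hold spot intensities per dye, with 3 spots per miRNA, 332 control spots per array and no background column, and whether background had been subtracted from them is not given in the sources used here. The authors' value table holds 1 normalized intensity per miRNA and line, made by background subtraction, LOWESS within arrays and cyclic LOWESS, and on it the methods set a minimum of 32. Their software versions are not given in the sources used here.

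From the spot intensities, normexp background correction (offset 50) on spot medians and loess within each array (span 0.3, 4 iterations, control spots at weight 0) were run in limma 3.58.1 (R 4.3.3). A level is the mean over the spots on the log2 scale, turned back and less 50. A log2 ratio is the mean of the spot ratios with the offset in, so it understates changes of dim probes. Levels are normalized within arrays, and the Aquantile step between arrays was used only for the levels named so. Counts and levels of lines on different arrays otherwise stand side by side without it. The test over arrays was lmFit and eBayes on the 2 array ratios, two-sided, with and without moderated variance, with Benjamini-Hochberg adjustment over 272 miRNAs. Python 3.11.15 with pandas 2.3.3 and matplotlib 3.10.9 made the counts and plots. The number of arrays limits the precision.

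Star strands named were those that reached 100 in both lines of an array, the 5 highest and 5 lowest ratios with all spots of one sign per array, and the 2 brightest of each list, with their guides. Others, named to complete a count or a seed group, were chosen after their values were seen. The members, lists and tests were chosen with earlier results of these data known. Sequences came from the array tables and positions from RefSeq (GRCh38.p14). The lists were let-7, miR-17/92, miR-30, miR-15/16, miR-23/27/24, miR-26 and miR-29, the miR-181, miR-99, miR-100 and miR-125 families, growth and liver cancer, the epithelial-mesenchymal transition, and star strands with functions of their own. Alternatives covered normalization, background, the spots used, the minimum, the guide's name and the authors' values.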

Additional observations from a re-analysis of the deposited data

Results flagged for a closer look

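4 star strands at 32 or more in all 4 lines had all 3 spots on one side of 0 on array 1 and all 3 on the other side on array 2, among the named ones. The share of all miRNAs with such opposite signs was not counted. Each value is the log2 ratio of HepG2-Twist1 over HepG2-vector minus that of HepG2-Twist1/Bcl-2 over HepG2-Bcl-2, and with 1 sample per line this difference was not tested. miR-187* differed by -0.83 (-0.09 on array 1 and 0.75 on array 2), miR-106b* by -0.47 (-0.06 and 0.40), miR-193b* by -0.26 (-0.12 and 0.14) and let-7b* by 0.44 (0.19 and -0.25). The Twist1 line carried Cy5 on array 1 and Cy3 on array 2, so dye, array and Bcl-2 cannot be told apart in these differences.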

How the results depend on the processing

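The count of star strands past the test over both arrays stayed at 0 under every alternative, the test without moderated variance and no minimum included. That test is paired by array, and the labels give no replicate numbers for another pairing. Counts at 32 or more, for HepG2-Twist1/Bcl-2, HepG2-Bcl-2, HepG2-Twist1 and HepG2-vector in this order, were 135, 25, 12 and 132 without normalization, 20, 19, 20 and 19 with the median empty spot subtracted, 6, 8, 7 and 6 at a minimum of 100, and 35, 40, 89 and 99 counted as above the 95th percentile of the empty spots. Cyclic loess gave 39, 45, 52 and 62 in the same order of lines, and the authors' values 26, 27, 34 and 30. In both, each line of array 1 had more star strands over the minimum than each line of array 2. Without repeat spot 3 the counts were 90, 77, 38 and 42. Which array had more thus depended on the processing. Counts of star probes brighter than their guide, in the same order, were 35, 7, 2 and 27 without normalization, 6, 6, 6 and 5 with the empty spot subtracted, and 2, 1, 1 and 1 at a minimum of 100, with 6 in each array 2 line in the authors' values and 29 in HepG2-Twist1/Bcl-2 without repeat spot 3.

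On array 1, 9 of 132 measured star strands were called lower without normalization, beside 131 of all 814 measured miRNAs. With centring alone 1 of 47 was called lower (miR-149*), beside 23 of all 328. Called higher were 1 of 40 without repeat spot 1 and 1 of 44 without repeat spot 2 (let-7d* both times). Of all measured miRNAs, 1 of 297 and 1 of 306 were called higher in these 2 settings. On array 2, 9 of 135 were called higher without normalization, beside 107 of all 968 measured miRNAs. With centring alone 2 of 77 were called higher (miR-187* and miR-23a*), beside 38 of all 618. With the empty spot subtracted 1 of 24 was (miR-187*), beside 30 of all 234. In the authors' values 2 of 32 were (miR-187* and miR-23a*), beside 30 of all 279. Called lower on array 2 were 1 of 24 with the empty spot subtracted and 1 of 79 with the median of the spots (miR-424* both times). So were 2 of 77 without repeat spot 1 (miR-424* and miR-149*) and 2 of 32 in the authors' values (miR-424* and miR-29b-2*). Of all measured miRNAs, 60 of 234, 51 of 613, 53 of 542 and 66 of 279 were called in either direction in these settings. Calls in the authors' values rest on size alone, without the offset, since that table holds no single spots. miR-29b-2* is the strand with 1 outlying spot on array 2 described above. The median star ratio was -0.62 on array 1 and 0.57 on array 2 without normalization, where the median of all miRNAs was -0.63 and 0.59, and -0.23 and 0.14 with centring alone, where that of all was -0.32 and 0.13. At a minimum of 100 it was -0.53 on array 2. Of the 52 ratios of the named star strands 28 had the other sign without normalization, 16 with centring alone, 8 with cyclic loess, 3 with the empty spot subtracted, 2 in the authors' values, 2 with the median of the spots and 4 to 5 without 1 repeat spot. The cause of these shifts was not tested. Most star probes lay near the empty spots, which limits what their ratios can show.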
